A study of Mus musculus with 11 samples.

Results

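Kidney RNA from lupus-prone mice was examined for 8 genes of phenylalanine and tyrosine breakdown, namely Tat, Hpd, Hgd, Gstz1, Fah, Ttc36, Qdpr and Pcbd1, of 25677 genes listed in the count table. The members were chosen by 1 measured value, in that Hpd was higher in kidneys of DNase I-treated than of untreated MRL/lpr mice, and the difference between these groups is therefore described for every member and was not tested. All 8 symbols were found, 7 passed the filter on low counts in each comparison, and Tat did not. RNA-seq libraries were made from kidney tissue of female mice at 21 weeks of age, 1 library per mouse. The controls (Ctr, n = 3) were C57BL/6J mice, and the untreated lupus group (Lpr, n = 4) was MRL/lpr, a strain with a Fas mutation that develops lymphoproliferation and nephritis. The treated group (DNase, n = 4) was MRL/lpr given DNase I, an enzyme that cuts extracellular DNA, by daily intraperitoneal injection from week 17 onward. Ctr mice differ from both MRL/lpr groups in strain background as well as in the Fas mutation and disease, and these cannot be told apart in these data.

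Tyrosine, which the body also makes from phenylalanine, is broken down to fumarate and acetoacetate, mainly in hepatocytes and in the proximal tubule of the kidney. Tat removes the amino group of tyrosine, Hpd converts the resulting 4-hydroxyphenylpyruvate to homogentisate, Hgd opens the ring of homogentisate, Gstz1 isomerises the product and Fah cleaves it. Qdpr and Pcbd1 regenerate tetrahydrobiopterin, the cofactor that enzymes hydroxylating aromatic amino acids consume. Inherited loss of these steps causes tyrosinaemias, alkaptonuria and disorders of tetrahydrobiopterin, and inhibition of Hpd is used as a therapy in loss of Fah.

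All 8 genes were located on the GRCm38.p6 assembly by their RefSeq entries. Hpd lies at chr5:123171807-123182723, Qdpr at chr5:45434032-45450229, Fah at chr7:84585159-84605942 and Pcbd1 at chr10:61089331-61094329, and none of these overlaps another RefSeq gene. Hgd (chr16:37579742-37632026) overlaps the lncRNA gene Gm46559 and Tat (chr8:109986078-109999804) overlaps the pseudogene Gm45795. Gstz1 (chr12:87147161-87164723) overlaps Pomt2 and the lncRNA gene Gm6566, and Ttc36 (chr9:44799400-44802951) overlaps Tmem25. Whether the counting used strand is not given in the sources used here, so reads of such overlapping pairs may be split or shared. The 250 bases before the RefSeq start of Hpd, the gene that varied most between the MRL/lpr groups, are shown 5′ to 3′ on the strand of the gene. The window is chr5:123182724-123182973 on the minus strand, and capitals mark GGGCGG (a GC box).
Hpd: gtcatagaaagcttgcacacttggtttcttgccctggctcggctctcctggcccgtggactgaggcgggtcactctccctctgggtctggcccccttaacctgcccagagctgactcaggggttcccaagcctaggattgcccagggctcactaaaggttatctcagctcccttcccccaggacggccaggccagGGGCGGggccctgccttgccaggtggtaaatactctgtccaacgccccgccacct

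Motifs were searched on both strands, as exact letters chosen after the data were seen, in the 250 upstream bases of 8 windows from 7 of the 8 members, Gstz1 having more than 1 start and Ttc36 having no entry. CAAAGTCCA (an HNF4 site) was found in 0 member windows and in 0.384% of 32851 mouse promoters of the same length, and TATAAA in 2 member windows and 12.4% of promoters. GGGCGG was found in 5 of the 8 windows and in 32.7% of all promoters, and CCAAT in 5 and 33.8%. These are matches of letters only.

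Library totals ranged from 33469858 to 38460873 counts. Values are given as normalised CPM (counts scaled by the TMM-adjusted library size), which compare a gene between kidneys, or as deposited FPKM (fragments scaled by transcript length and library size), which allow levels of different genes to be set side by side. All 17 proximal tubule markers were detected in each group. Their summed level was 38900 to 40500 CPM in Ctr, 21600 to 37500 CPM in Lpr and 25100 to 32000 CPM in DNase, with Kap the highest, and without Kap it was 28300 to 30800, 18700 to 26300 and 22100 to 26300 CPM. Summed leukocyte markers (12 genes, led by Laptm5) were 47.1 to 69.2 CPM in Ctr, 317 to 609 CPM in Lpr and 276 to 477 CPM in DNase. In RNA from kidney tissue, fewer cells of a type and less RNA per cell cannot be told apart. The library of the third Lpr kidney stood apart, since its level against the other libraries fell by 0.35 on the log2 scale per doubling of gene length while the slopes of the other 10 libraries were -0.03 to 0.07. It also held the highest summed tubular injury markers (8 genes, led by Spp1) at 12940 CPM, against 1610 to 6045 CPM elsewhere. This library set the upper end of the Lpr range of summed proximal tubule markers, 37500 CPM, and the lower end without Kap, 18740 CPM. The other Lpr kidneys held 21570 to 29230 CPM, and 20730 to 26270 CPM without Kap. For the members, calls and most ranges that rest on this library are given with and without it. The later ranges of marker sums include it.

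Tat, which performs the first step of tyrosine breakdown in liver, was not detectable at this depth. Its count was 0 or 1 in each of the 11 kidneys, 1 in Ctr 1, DNase 3, DNase 4 and Lpr 3 and 0 in the others, which is below a floor of 3 counts per library, so no fold was computed. Other aminotransferases that can act on tyrosine were well expressed. Got1 and Got2, the aspartate aminotransferases, had mean levels of 136 and 403 CPM in Ctr, 186 and 337 CPM in Lpr and 174 and 395 CPM in DNase.

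Hpd, the dioxygenase of the second step, differed most between group means of all members. Its coefficient of variation within groups was 45.5% in Ctr, 43.1% in Lpr and 25.0% in DNase. Its level was 227, 271 and 97.2 CPM in the Ctr kidneys, 78.0, 61.2, 119 and 163 CPM in the Lpr kidneys and 336, 207, 381 and 277 CPM in the DNase kidneys. Each DNase kidney was above each Lpr kidney, which is the difference the gene was chosen for, and the Ctr kidneys spread across both groups, with the third Ctr kidney among the Lpr values. The means were 199 ± 90.4 CPM in Ctr (SD, n = 3), 105 ± 45.4 CPM in Lpr (SD, n = 4) and 300 ± 75.1 CPM in DNase (SD, n = 4). Hpd was 2.87-fold higher in DNase than in Lpr (log2 fold change 1.52, SE 0.315), as a description. Among 2018 genes with a mean of at least 100 CPM in MRL/lpr kidneys it ranked 1 by log2 fold change in this comparison, ahead of Dnase1, Cyp2a5, Cyp4a14 and Prlr. This rank rests on the values by which Hpd was chosen, holds for that level of expression only, and lends the difference no support. Over all 15832 genes tested between DNase and Lpr, 0% were called at an adjusted p under 0.05 by edgeR, 5.6% had an unadjusted p under 0.05 and 1.92% were higher in DNase with groups that did not overlap. The kidneys nearest the boundary were DNase 2 at 207 CPM and Lpr 4 at 163 CPM.

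**Figure D1:**
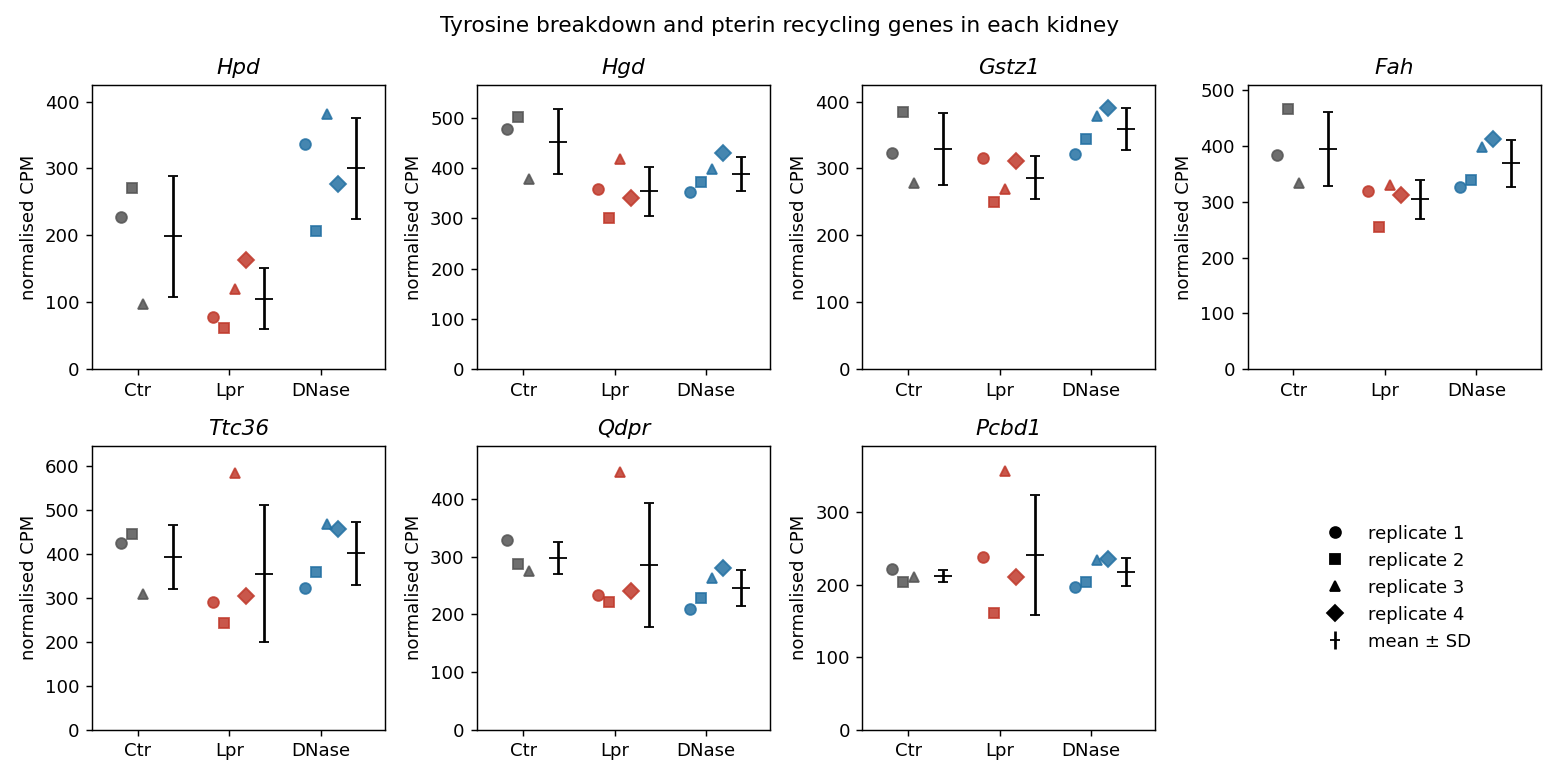
Normalised CPM (vertical axes, linear from 0) of the 7 detected members in each kidney, by group, with the shape of the point giving the replicate and black bars the group mean ± SD. Hpd is the member for which the 4 DNase kidneys (207 to 381 CPM) stand farthest above the 4 Lpr kidneys (61.2 to 163 CPM), and Lpr replicate 3 is the highest of 11 kidneys for Ttc36, Qdpr and Pcbd1.

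Against Ctr, Hpd was lower in Lpr (log2 fold change -0.91, SE 0.408) and higher in DNase (0.60, SE 0.322), but Ctr overlapped both groups. Both of these differences use libraries by which the gene was chosen and are descriptions. They shifted with single control kidneys, from -1.24 without Ctr 3 to -0.63 without Ctr 2 for Lpr, and from 0.27 without Ctr 3 to 0.89 without Ctr 2 for DNase. The mean of both MRL/lpr groups did not differ detectably from Ctr, with a log2 fold change of -0.16 (SE 0.333, 95% interval -0.89 to 0.57, adjusted p = 0.831 by edgeR's quasi-likelihood test). The direction of this last value turned without Ctr 2, where it was 0.12, and was -0.49 without Ctr 3.

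The enzymes after Hpd varied less, with coefficients of variation within groups of 8.71 to 16.9%. Hgd, homogentisate dioxygenase, was at 478, 502 and 379 CPM in Ctr, 359, 301, 418 and 340 CPM in Lpr and 353, 372, 399 and 431 CPM in DNase. Gstz1, maleylacetoacetate isomerase, was at 323, 385 and 278 CPM in Ctr, 315, 250, 269 and 311 CPM in Lpr and 322, 344, 379 and 390 CPM in DNase. Fah, fumarylacetoacetate hydrolase, was at 384, 466 and 334 CPM in Ctr, 320, 254, 330 and 313 CPM in Lpr and 327, 339, 398 and 413 CPM in DNase. Lpr 2 was the lowest of all 11 kidneys for each of Hpd, Hgd, Gstz1 and Fah. It was also the lowest for Ttc36 (243 CPM) and Pcbd1 (161 CPM), but not for Qdpr. That kidney also had the lowest summed proximal tubule markers, 21570 CPM, though without Kap the lowest sum was that of Lpr 3 (18740 CPM, against 20730 CPM in Lpr 2). It had the highest summed leukocyte markers, 608.8 CPM, and the part of these in the low levels was not tested. Gstz1 was higher in every DNase than in every Lpr kidney, as were 1.92% of all genes, by a narrow gap of 315 to 322 CPM and a log2 fold change of 0.33. For Hgd and Fah the DNase and Lpr kidneys overlapped, with log2 fold changes of 0.14 and 0.29.

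Ttc36, a tetratricopeptide repeat protein known to protect Hpd protein from degradation, was at 424, 445 and 309 CPM in Ctr, 290, 243, 585 and 304 CPM in Lpr and 323, 360, 468 and 457 CPM in DNase. Qdpr, which reduces the spent pterin cofactor, was at 329, 288 and 276 CPM in Ctr, 233, 222, 447 and 240 CPM in Lpr and 210, 229, 263 and 280 CPM in DNase. Pcbd1, the dehydratase of the same cycle, was at 221, 204 and 210 CPM in Ctr, 238, 161, 356 and 210 CPM in Lpr and 197, 204, 234 and 235 CPM in DNase. For all 3 genes Lpr 3 held the highest value of the 11 kidneys, and with it Lpr overlapped DNase for each. The remaining Lpr kidneys still overlapped DNase for Qdpr and Pcbd1. For Ttc36 they lay below DNase by a narrow gap of 304 to 323 CPM, and the share of all genes apart without Lpr 3 was not counted. The log2 fold changes of Ttc36, Qdpr and Pcbd1 in DNase against Lpr were 0.18, -0.21 and -0.14, and without Lpr 3 they were 0.53, 0.08 and 0.10.

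Lpr 3 exceeded the mean of the other 3 Lpr kidneys by a ratio of 2.09 for Ttc36, 1.93 for Qdpr and 1.75 for Pcbd1. The ratio was 1.25 for Hgd, 1.18 for Hpd, 1.11 for Fah and 0.921 for Gstz1. Ttc36 and Pcbd1 have the shortest transcript lengths of the members, 764 and 822 bases, and Gstz1 the longest, 4003 bases, while Qdpr and Hpd are alike at 1394 and 1400 bases. The part of the length slope of this library in these values was not tested.

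On the FPKM scale, which takes gene length into account, Ttc36 was the most abundant member in each group, with means of 495 ± 84.4 in Ctr, 455 ± 170 in Lpr and 543 ± 93.1 FPKM in DNase (SD, n = 3, 4 and 4). Its range lay above those of all other members in Ctr (398 to 546 FPKM) and DNase (441 to 638 FPKM) but overlapped that of Pcbd1 in Lpr. Without Lpr 3 the Lpr ranges did not overlap, with 328 to 410 FPKM for Ttc36 and 202 to 287 FPKM for Pcbd1. Pcbd1, Hgd, Fah and Qdpr followed with group means of 182 to 288 FPKM, and neighbours in the order of their means overlapped in Ctr and in Lpr. In DNase, Qdpr (157 to 203 FPKM) lay below Hgd (205 to 243 FPKM), which lay below Pcbd1 (250 to 296 FPKM), and Fah overlapped Hgd and Pcbd1. With all kidneys, Gstz1 was the lowest detected member in each group on average, with 79.0 ± 10.9 FPKM in Ctr, 71.1 ± 9.19 FPKM in Lpr and 92.6 ± 7.27 FPKM in DNase. Hpd had means of 136 ± 59.8 FPKM in Ctr, 74.6 ± 33.1 FPKM in Lpr and 222 ± 56.7 FPKM in DNase. In Lpr its range, 45.1 to 120 FPKM, overlapped that of Gstz1. Without Lpr 3 the Lpr mean of Hpd was slightly below that of Gstz1, with kidneys at 55.2, 45.1 and 120 FPKM for Hpd and 77.9, 64.5 and 80.1 FPKM for Gstz1. In DNase the range of Hpd, 154 to 284 FPKM, overlapped those of Hgd, Fah, Qdpr and Pcbd1.

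The balance between Hpd and the next enzyme was followed within each kidney as a ratio of FPKM, in which library size cancels. Hpd was 0.609, 0.691 and 0.328 of Hgd in the Ctr kidneys, 0.279, 0.261, 0.365 and 0.613 of Hgd in the Lpr kidneys, and 1.22, 0.713, 1.22 and 0.824 of Hgd in the DNase kidneys. All 4 DNase kidneys lay above all Lpr and all Ctr kidneys by this ratio. Against Fah the ratio ran from 0.329 to 0.671 in Ctr, 0.273 to 0.588 in Lpr and 0.693 to 1.16 in DNase. Against Gstz1 it ran from 1.00 to 2.01 in Ctr, 0.699 to 1.49 in Lpr and 1.72 to 2.98 in DNase, so that DNase overlapped Ctr. With Ttc36, Qdpr or Pcbd1 as the denominator the DNase and Lpr kidneys again did not overlap, but DNase overlapped Ctr for each. The lowest DNase ratios were 0.314, 0.903 and 0.597, and the highest Ctr ratios 0.332, 0.936 and 0.781. Of the summed level of the 8 members, Hpd made up 9.53, 10.6 and 5.16% in Ctr, 4.26, 4.10, 4.72 and 8.64% in Lpr and 16.2, 10.1, 15.1 and 11.2% in DNase. The ratios contain the Hpd values by which the list was chosen and are given without a test.

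**Figure D2:**
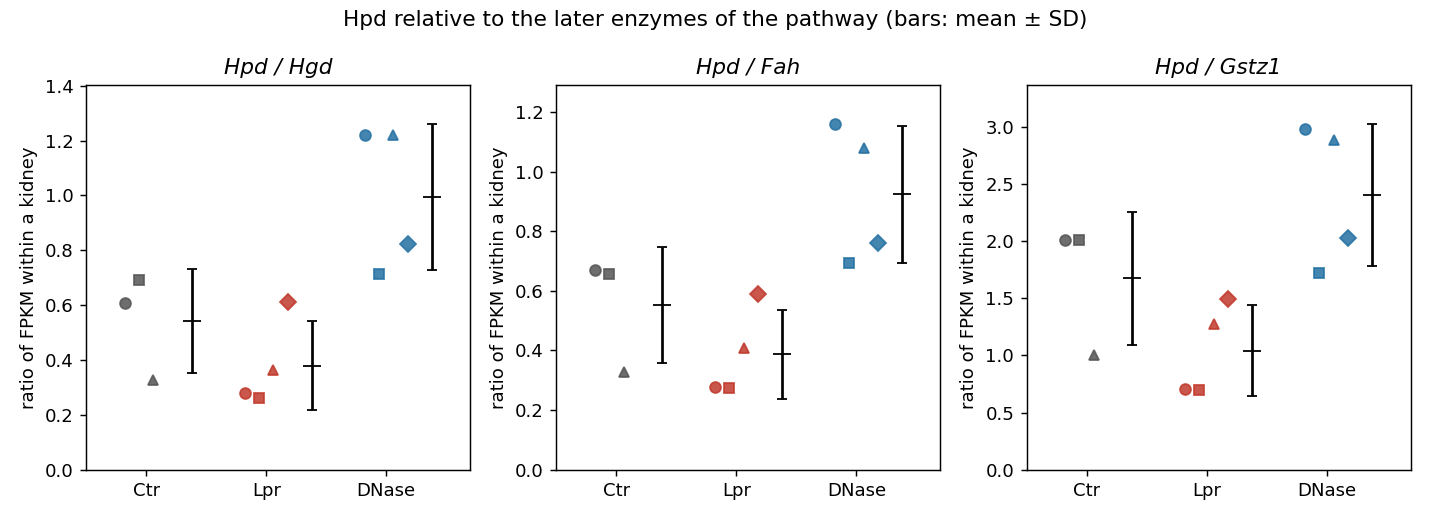
Ratio of Hpd FPKM to that of Hgd, Fah and Gstz1 in each kidney (vertical axes, linear from 0), by group, with point shapes giving the replicate and black bars the mean ± SD. DNase kidneys lie at 0.713 to 1.22 of Hgd and Lpr kidneys at 0.261 to 0.613.

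Whether the members differ between MRL/lpr and control kidneys was tested with a contrast of the mean of both MRL/lpr groups against Ctr, which does not use the difference between DNase and Lpr. By edgeR, 0 of 7 members were called at an adjusted p under 0.05, beside 15.9% of 16500 genes tested (10.3% higher and 5.61% lower). At an unadjusted p under 0.05 the count was also 0, beside 26.6% of all genes, and DESeq2 and limma called 0. The log2 fold changes were below 0 for 6 of the 7, beside 48.7% of all genes, and their median was -0.16 beside 0.01 over all genes tested. Hgd had the largest, -0.29 (SE 0.132, 95% interval -0.58 to 0.00, adjusted p = 0.189), followed by Fah with -0.24 (SE 0.136, 95% interval -0.53 to 0.06, adjusted p = 0.314). Qdpr had -0.17 (adjusted p = 0.672), Ttc36 -0.05 (adjusted p = 0.925), Gstz1 -0.04 (adjusted p = 0.908) and Pcbd1 0.12 (adjusted p = 0.782). Without Lpr 3, 2 members were called lower in MRL/lpr, Hgd with -0.34 (adjusted p = 0.0323) and Qdpr with -0.33 (adjusted p = 0.0261), beside 10.8% of all genes called lower in that fit.

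Between Lpr and Ctr, edgeR called 0 of the 6 members tested, Hpd being a description, beside 10.2% of 16074 genes, and 0 had an unadjusted p under 0.05, beside 21.4% of all genes. Fah was lower in every Lpr kidney (254 to 330 CPM) than in every Ctr kidney (334 to 466 CPM), with a log2 fold change of -0.37 (SE 0.176, adjusted p = 0.272), and 11.2% of all genes were lower without overlap. Hgd overlapped between these groups (-0.35, adjusted p = 0.311), as did Gstz1 (-0.19, adjusted p = 0.589). Qdpr had a log2 fold change of -0.06 (adjusted p = 0.922) with all kidneys and of -0.36 (adjusted p = 0.0402) without Lpr 3, where 6.79% of all genes were called lower. Between DNase and Ctr, again 0 of 6 were called by edgeR, DESeq2 or limma beside 21.7% of 16100 genes, and 1 had an unadjusted p under 0.05, beside 33.5% of all genes. That gene was Qdpr, with -0.28 (SE 0.115, adjusted p = 0.126). Fah and Gstz1 overlapped between DNase and Ctr, with log2 fold changes of -0.09 (95% interval -0.39 to 0.20) and 0.13 (95% interval -0.14 to 0.40). The comparisons of Lpr and of DNase with Ctr share their control kidneys.

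**Figure D3:**
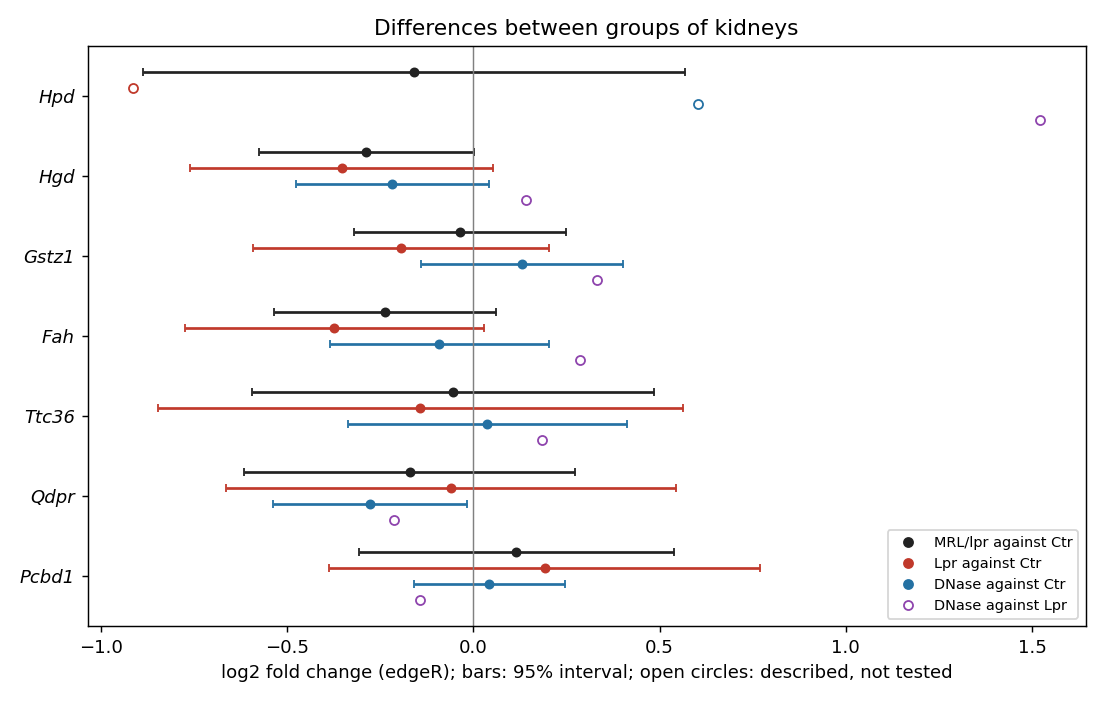
Log2 fold changes of the 7 detected members from edgeR (horizontal axis) in 4 comparisons given by colour, with bars for 95% intervals and open circles for differences that are described without a test. Hpd runs from -0.91 in Lpr against Ctr to 1.52 in DNase against Lpr, while all other members lie between -0.37 and 0.33.

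Across the 8 MRL/lpr kidneys the later enzymes varied together. On log2 CPM, Pearson's r was 0.897 for Gstz1 and Fah, 0.88 for Hgd and Fah and 0.601 for Hgd and Gstz1, and without Lpr 3 these were 0.991, 0.985 and 0.978. Hpd had r = 0.80 with Gstz1, 0.783 with Fah and 0.544 with Hgd, and 0.808, 0.795 and 0.715 without Lpr 3. After removal of the group means, whose difference is that by which Hpd was chosen, these were 0.371, 0.513 and 0.359, and without Lpr 1 and Lpr 2 they were 0.791, 0.591 and 0.0. The pterin genes Qdpr and Pcbd1 had r = 0.905 with each other and 0.658 without Lpr 3. With Hpd they had r = -0.06 and 0.07, and 0.364 and 0.451 without Lpr 3. After removal of the group means these were 0.329 and 0.426, in the range of the later enzymes, and without Lpr 1 and Lpr 2 they were -0.627 and -0.597. Ttc36 had r = 0.478 with Hpd and 0.831 without Lpr 3. Its r was 0.439 after removal of the group means and -0.214 without Lpr 1 and Lpr 2. These values are descriptions over kidneys of 2 groups that share sequencing and scaling.

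Among 11489 genes with a mean of at least 5 CPM, genes were ranked by how like Hpd their pattern was over the 8 MRL/lpr kidneys. Genes with Gm, Rik, clone or pseudogene symbols were then passed over, and the 5 others most like Hpd were named. They were Uqcrc2, a core subunit of respiratory complex III (r = 0.959), Sh3gl2, an endophilin of endocytosis (r = 0.958), Prlr, the prolactin receptor (r = 0.952), Sucnr1, the succinate receptor (r = 0.945), and St6galnac3, a sialyltransferase (r = 0.944). Their Spearman rho values were 0.952, 0.952, 0.905, 0.786 and 0.952. After removal of the group means r was 0.861, 0.874, 0.828, 0.75 and 0.785, and without Lpr 1 and Lpr 2, the kidneys farthest from the median Hpd level, it was 0.928, 0.949, 0.87, 0.846 and 0.915. Prlr was at 281, 286 and 243 CPM in Ctr, 126, 87.5, 139 and 204 CPM in Lpr and 245, 264, 289 and 248 CPM in DNase. Each Lpr kidney was thus below each Ctr and each DNase kidney for Prlr, whereas Ctr 3 lay within Lpr for Hpd. Uqcrc2 varied over a much smaller range, 366 to 424 CPM in Lpr, 429 to 468 CPM in DNase and 465 to 482 CPM in Ctr. Since Hpd differs between the MRL/lpr groups by choice, genes that differ the same way come first in this order.

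**Figure D4:**
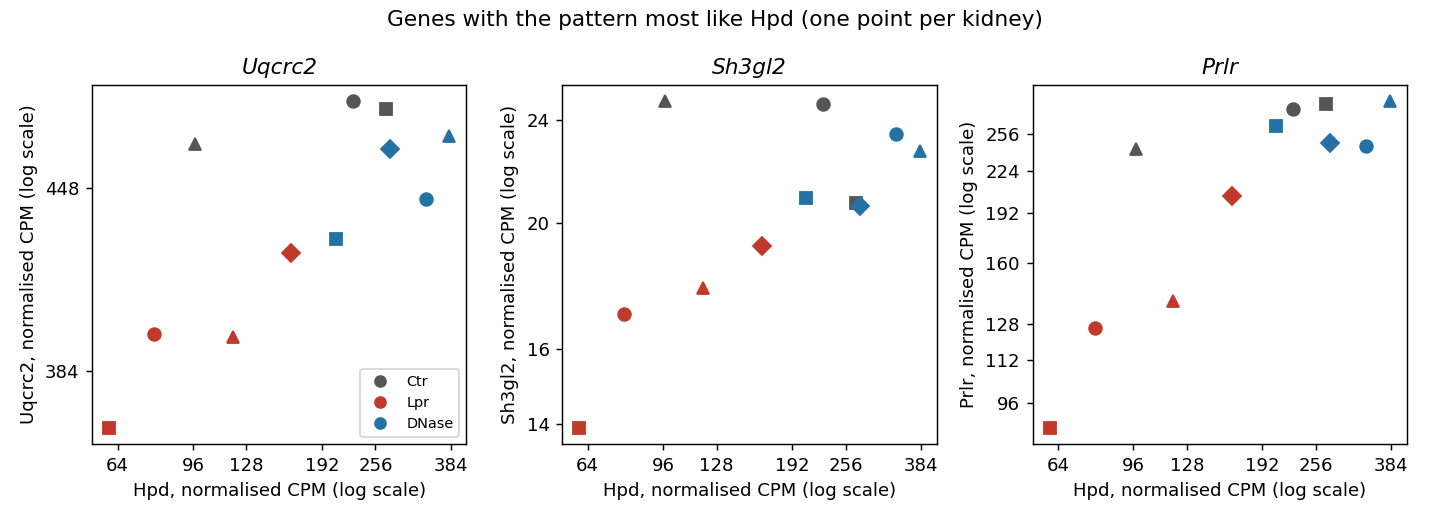
Normalised CPM of the 3 named genes most like Hpd (vertical axes, log scale) against Hpd (horizontal axes, log scale), 1 point per kidney, with colour for the group and shape for the replicate. The 8 MRL/lpr kidneys rise together (r of 0.952 to 0.959), and the Ctr kidney with 97.2 CPM of Hpd lies above all 4 Lpr kidneys for each of the 3 genes.

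Genes around the pathway were counted in the same contrast of MRL/lpr against Ctr, beside the 10.3% higher and 5.61% lower over all genes. Of 7 genes of tetrahydrobiopterin supply, 1 was higher and 2 were lower, with a median log2 fold change of -0.03. Gch1, the first enzyme of tetrahydrobiopterin synthesis, rose by 1.06 (adjusted p = 0.00886) from a low level of 1.82 CPM in Ctr to 4.56 CPM in Lpr and 3.16 CPM in DNase. Dnajc12, a co-chaperone of aromatic amino acid hydroxylases, was lower (-0.60, adjusted p = 0.0221). The synthesis enzymes Pts and Spr were not called, with log2 fold changes of -0.03 and 0.01.

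Of 9 other enzymes of tyrosine and phenylpyruvate tested, 0 were higher and 2 were lower (median -0.05). They were the kynurenine aminotransferases Kyat3 (-0.96, adjusted p = 0.000612), with 173 CPM in Ctr, 84.6 CPM in Lpr and 93.8 CPM in DNase, and Kyat1 (-0.40, adjusted p = 0.0264). Got1 did not pass the test (0.40, adjusted p = 0.0548). It was higher in every MRL/lpr than in every Ctr kidney, but the share of all genes so separated was not counted. Hpdl, a relative of Hpd, was low at 1.95 CPM in Ctr and 1.19 CPM in both MRL/lpr groups, and was not called (-0.71, adjusted p = 0.173). Of 4 genes from tyrosine to catecholamines, 1 was lower (median -0.29), Maob, which oxidises amines (-1.51, adjusted p = 0.0063). Ddc, which decarboxylates aromatic amino acids in the proximal tubule, was not called (-0.32, adjusted p = 0.233).

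Of 12 transporters of aromatic amino acids, 0 were higher and 1 was lower (median -0.21), the basolateral exchanger subunit Slc7a8 (-1.05, adjusted p = 0.0225), from 402 CPM in Ctr to 203 CPM in Lpr and 187 CPM in DNase. Of 10 genes of tryptophan breakdown, 1 was higher and 1 was lower (median 0.10). Acmsd, which diverts the pathway from NAD synthesis, rose by 1.15 (adjusted p = 0.00197) from 146 CPM to 283 CPM in Lpr and 366 CPM in DNase, and Haao, which forms its substrate, was lower (-0.75, adjusted p = 0.0017).

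Of 24 genes of branched-chain amino acid breakdown, 1 was higher and 3 were lower (median -0.06). Bckdhb, a subunit of the branched-chain ketoacid dehydrogenase, was higher (0.92, adjusted p = 0.00497). Pccb, of propionyl-CoA carboxylase (-0.67, adjusted p = 0.0019), Mccc1, of methylcrotonyl-CoA carboxylase (-0.61, adjusted p = 0.00292), and Hibch, of valine breakdown (-0.72, adjusted p = 0.00764), were lower. Of 35 genes for the breakdown of other amino acids, 5 were higher and 6 were lower (median -0.05).

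The largest differences among these lay in histidine breakdown. Hal, its first enzyme, rose by 5.34 on the log2 scale (adjusted p = 5.5e-05), from 0.21 CPM in Ctr to 11.0 CPM in Lpr and 7.01 CPM in DNase. Uroc1, the second enzyme, was lower (-1.92, adjusted p = 9.4e-05), from 74.0 CPM to 18.0 and 21.2 CPM, and Amdhd1, the third, was lower (-4.84, adjusted p = 2.6e-05), from 4.79 CPM to 0.208 and 0.131 CPM. Sardh, which oxidises sarcosine, was lower (-1.31, adjusted p = 3.6e-05), from 521 CPM to 185 and 240 CPM. Cbs, of homocysteine breakdown, and Shmt1, of serine and glycine exchange, were higher (0.86, adjusted p = 0.018, and 0.40, adjusted p = 0.0228). These genes are members of lists written with earlier results of these data known.

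**Figure D5:**
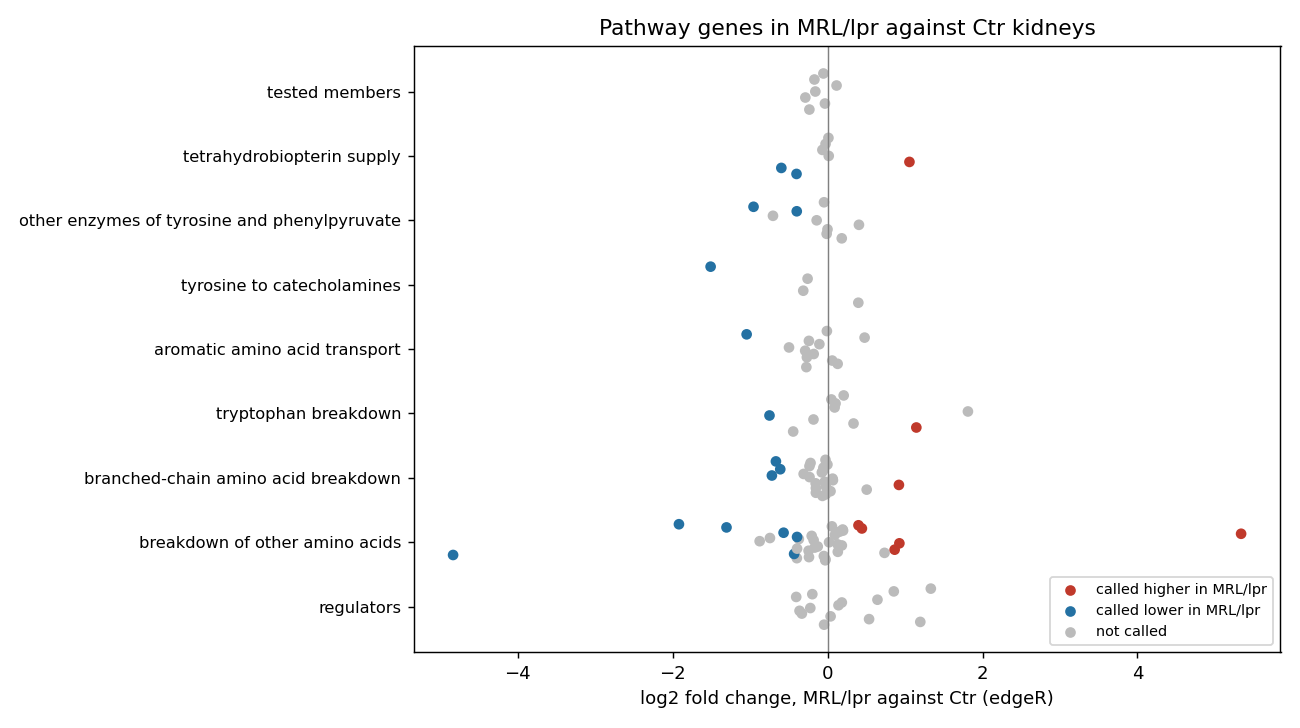
Log2 fold change of MRL/lpr against Ctr from edgeR (horizontal axis) for the 7 tested members and for each list of related genes (rows), 1 point per gene, with red for genes called higher, blue for genes called lower and grey for the rest. All 7 members are grey and lie between -0.29 and 0.12, while Hal (5.34) and Amdhd1 (-4.84) mark the ends of the range.

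Regulators known to act on tyrosine breakdown genes in liver or on proximal tubule genes were also counted. Of 14, 2 were called higher and 2 lower in DNase against Ctr, beside 21.7% of all genes called in either direction. In Lpr against Ctr 0 were called, beside 10.2% of all genes. In MRL/lpr against Ctr 0 were called (median 0.09), beside 15.9% of all genes. Hnf4a, a factor of proximal tubule and hepatocyte identity, had means of 796 CPM in Ctr, 643 CPM in Lpr and 722 CPM in DNase (-0.22, adjusted p = 0.623). Tsc22d3, a gene that glucocorticoids induce, had means of 38.7 CPM in Ctr, 102 CPM in Lpr and 47.9 CPM in DNase (0.85, adjusted p = 0.0714). Zbtb16, another such gene, had 2.72, 11.0 and 4.27 CPM (1.33, adjusted p = 0.226).

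Hepatocytes also express the whole pathway, so their markers were summed over 14 genes. The sum was 379 to 491 CPM in Ctr, 263 to 718 CPM in Lpr and 426 to 925 CPM in DNase, with Apob, which kidney also expresses, the highest. Of 10 hepatocyte markers tested in MRL/lpr against Ctr, 1 was called higher and 5 lower, with a median log2 fold change of -1.49, and Alb, the gene of serum albumin, had mean levels of 13.6 CPM in Ctr, 4.36 CPM in Lpr and 6.53 CPM in DNase. Between DNase and Lpr, 3 of 8 hepatocyte markers tested had a log2 fold change above 0 and 5 below, with a median of -0.21 beside -0.02 over all genes. Tat, itself typical of hepatocytes, was at 0 or 1 count in all kidneys. The part of hepatocyte RNA in the Hpd levels was not tested. Summed tubular injury markers were 1610 to 2060 CPM in Ctr, 2510 to 12900 CPM in Lpr and 2210 to 3010 CPM in DNase, and their part in the Hpd levels was not tested. Summed adipocyte markers (6 genes, led by Cfd), were 30.8 to 833 CPM in Ctr, 6.67 to 1040 CPM in Lpr and 2.43 to 192 CPM in DNase. Ctr 3 and DNase 2, the kidneys with the lowest Hpd of their groups, had the highest adipocyte sums of those groups (832.9 and 192.3 CPM). In Lpr the order was the other way, as Lpr 3 and Lpr 4, with the highest Hpd, had the highest adipocyte sums (1045 and 546.8 CPM). The part of adipocyte RNA in the Hpd levels was not tested.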

How the data were processed

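RNA-seq of kidneys from 3 Ctr, 4 Lpr and 4 DNase mice was analysed, with a library for each mouse. The authors deposited raw read counts per gene, obtained from 100 bp paired-end reads, for which fastp, HTSeq, DESeq2, R 3.2.0 and mm10 are named in the submitters' processing notes, and the study's methods name HTSeq for matching reads to genes. No other aligner is given in the sources used here. They also deposited FPKM, which the authors derived from these counts by dividing by library total and gene length. All sample columns were used (0 unused).

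Counts were filtered with filterByExpr, scaled by TMM and compared with edgeR 4.0.16 (quasi-likelihood test, R 4.3.3), with both groups alone in each pairwise fit and all 3 groups for the mean of both MRL/lpr groups against Ctr. Calls required an adjusted p under 0.05 (Benjamini-Hochberg, over all genes tested). Alternatives were DESeq2 1.42.0, limma 3.58.1 on log2(FPKM + 1) or log2(FPKM + 0.1) for genes with a mean of at least 0.5 FPKM, other scalings and filters, the study's added threshold of an absolute log2 fold change above 2, a replicate block and leaving out each kidney. Figures used matplotlib 3.10.9.

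The members, lists and tests were chosen with earlier results of these data known. Named were all members, up to 3 called genes per direction and list with the smallest p, and the 5 genes most like Hpd apart from Gm, Rik, clone and pseudogene symbols. Some genes that this rule names and some motifs searched are not reported here, though gene counts include them. Regulators, Got1, Got2, Hpdl, Ddc, Pts and Spr, Alb, and the genes ranked after Hpd, were named after their values were seen. Of the marker lists, those of other nephron parts (6 genes, 7540 to 7700 CPM in Ctr, 4980 to 6540 CPM in Lpr and 5710 to 9170 CPM in DNase), skeletal muscle (5 genes, 2.31 to 24.6 CPM over all kidneys) and adrenal gland (6 genes, 0.211 to 1.12 CPM) were summed in the same way. Coordinates and sequences are from RefSeq on GRCm38.p6.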

Additional observations from a re-analysis of the deposited data

Results flagged for a closer look

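Of 14 groups of 4 kidneys checked, those of the 7 detected members in Lpr and in DNase, 1 held a kidney far from the others. Qdpr was at 447 CPM in the third Lpr kidney and at 222 to 240 CPM in the other Lpr kidneys, and the gap was 0.92 of the range of the group, above the critical value of 0.829. Chance flags about 1 in 20 groups. The same library held the highest Ttc36 and Pcbd1 values and stood apart in its slope on gene length, and the part of that slope in the Qdpr value was not tested.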

How the results depend on the processing

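No member was called against Ctr in any comparison under another scaling (RLE, library totals), DESeq2, limma, a looser filter, the study's threshold or a replicate block, and only leaving out Lpr 3 gave calls. Leaving out 1 kidney at a time gave 0 to 2 members called lower in MRL/lpr against Ctr and 0 to 1 in Lpr against Ctr, the highest counts being without Lpr 3 in both. It gave 0 in DNase against Ctr, and 0 called higher in each. The log2 fold change of Hpd in DNase against Lpr, the difference it was chosen for, stayed above 0 throughout, at 1.32 to 1.81 with 1 kidney left out. Each DNase kidney was above each Lpr kidney, so leaving out 1 could not turn this direction, and the range is a description only. Values near 0 turned. With library totals alone, Fah in DNase against Ctr was 0.0046, and in MRL/lpr against Ctr Gstz1 was 0.038 and Ttc36 was 0.0058. On log2(FPKM + 1) and log2(FPKM + 0.1), Fah was 0.0080 in both and Gstz1 was 0.040 and 0.041. With the replicate block, Ttc36 in DNase against Ctr was -0.031. With 1 kidney left out, MRL/lpr against Ctr ran from -0.49 to 0.12 for Hpd, -0.14 to 0.089 for Gstz1, -0.24 to 0.039 for Ttc36 and -0.016 to 0.19 for Pcbd1. Lpr against Ctr ran from -0.36 to 0.030 for Qdpr and -0.054 to 0.33 for Pcbd1, and DNase against Ctr from -0.21 to 0.039 for Fah and -0.12 to 0.13 for Ttc36. Of related amino acid and regulator genes in MRL/lpr against Ctr, 8 were called higher and 16 lower. The count higher was 13 by DESeq2, 5 with the replicate block and 1 under the study's threshold, which left 1 lower. With 1 kidney left out the counts were 3 (without Ctr 3) to 12 (without Lpr 3) higher and 8 (without Ctr 1) to 24 (without Lpr 3) lower. Among the genes named, calls lost without at least 1 control kidney were those of Kyat1, Slc7a8, Dnajc12, Hibch, Gch1, Cbs and Shmt1. Kyat1 and Slc7a8 also lost theirs by limma, Kyat1 and Shmt1 with the looser filter and with the replicate block, and Kyat1 with library totals. Same-numbered kidneys did not deviate together (r from -0.305 to 0.233), so the block carries only a shared number. The causes of these shifts were not tested. With 3 or 4 mice per group, 95% intervals of the members in MRL/lpr against Ctr reached from -0.89 to 0.57.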
